A study of Mus musculus with 4 samples.

Results

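The genes described here are the placental hormone, glycoprotein and protease families of the mouse, as counted in whole uterus at E18.5 of pregnancy. They were taken by symbol from the 21976 protein-coding genes of the count tables: the prolactin-related genes (Prl and a digit), the pregnancy-specific glycoprotein genes (Psg and a digit), the trophoblast-specific genes Tpbpa and Tpbpb, the placental cathepsin genes Cts3, Cts6, Ctsj, Ctsm, Ctsq and Ctsr, the syncytin genes Syna and Synb, and Ctsl, a cathepsin of most tissues. This gave 48 genes of 55421 counted: 24 Prl, 13 Psg, 6 placental cathepsins, 2 Tpbp, 2 syncytins and Ctsl. The rule reads symbols and no counts.

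Uteri were taken from 2 pregnant WT mice (strain C57BL/6J) and 2 pregnant Qa-2- mice (strain B6.Cg-H2b3/FlaCmwJ, also called B6.K1), a line that lacks the non-classical MHC class I antigen Qa-2 and was mated within its own strain, as the WT mice were. All 4 mice were at E18.5, with the day of the vaginal plug taken as E0.5, and each mouse gave 1 RNA library from a small piece of the frozen, powdered uterus. The study compared the genotypes. For cell suspensions, the study dissected fetuses and fetal placenta away from the uterus, and whether this was also done for the RNA is not stated in the methods.

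Counts are read pairs per gene, with 33286390 to 41041299 in total per library. H2-Q7 and H2-Q6, which encode Qa-2, had 1192 to 6318 counts in the WT libraries and 2 to 4 in those of Qa-2- mice, so the counts follow the labels. Apart from the genotype the libraries differed widely. The 6 uterine smooth muscle genes summed to 12276 CPM (counts scaled to the size of the library) in Qa-2- replicate 2 and to 43141 CPM in WT replicate 2, and 7 of the 8 visceral yolk sac genes summed to 9.69 CPM in WT replicate 1 and to 563 CPM in Qa-2- replicate 1. Rbp4, the yolk sac gene left out of that sum, stood at 39221 counts in WT replicate 1, against 259 to 545 elsewhere.

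The mature mouse placenta has a labyrinth, where maternal and fetal blood exchange, and a junctional zone of spongiotrophoblast and glycogen cells that borders the maternal decidua. Each of these layers secretes its own set of hormones: the Prl and Psg families expanded in rodents as clusters of neighbouring genes, and single members are used as markers of single trophoblast types. Placental lactogens act on the prolactin receptor of the mother, Psg proteins are immunoglobulin-like proteins secreted in large amounts by the junctional zone, and the placental cathepsins are cysteine proteases that arose near Tpbpa and Tpbpb and are little used outside the placenta.

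The families were found mainly in 1 of the 4 libraries. WT replicate 2 had more than 3 counts for 32 of the 48 genes and WT replicate 1 for 9, whereas Qa-2- replicate 1 had them for 14 and Qa-2- replicate 2 for 5. A count of 3 is the limit that a count of 0 allows, 0.0747 to 0.0858 CPM by library, and covers counting error only. Of the 48 genes, 8 were at 0 in every library, 5 more had 1 to 3 counts at most, 6 reached 4 to 9 counts and 29 had at least 10 counts in a library. Just 3 genes were over 3 counts in every library: Ctsl, Prl6a1 and Tpbpa. Of the 19 genes over 3 counts in 1 library, 17 were over it in WT replicate 2.

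Leaving out Ctsl, 34 genes passed 3 counts in a library, and 26 of them (76.5%) had their highest CPM in WT replicate 2, against 27.8% of the 22464 genes of the whole table that passed 3 counts. Qa-2- replicate 1 was highest for 5 of the 34 (14.7%, against 21.5% of all genes), WT replicate 1 for 2 (5.88%, against 22.6%) and Qa-2- replicate 2 for 1 (2.94%, against 28.1%). Of the 34, 17 entered the count through WT replicate 2 alone and so had to be highest there, and these shares are descriptions of single libraries without a test.

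**Figure D1:**
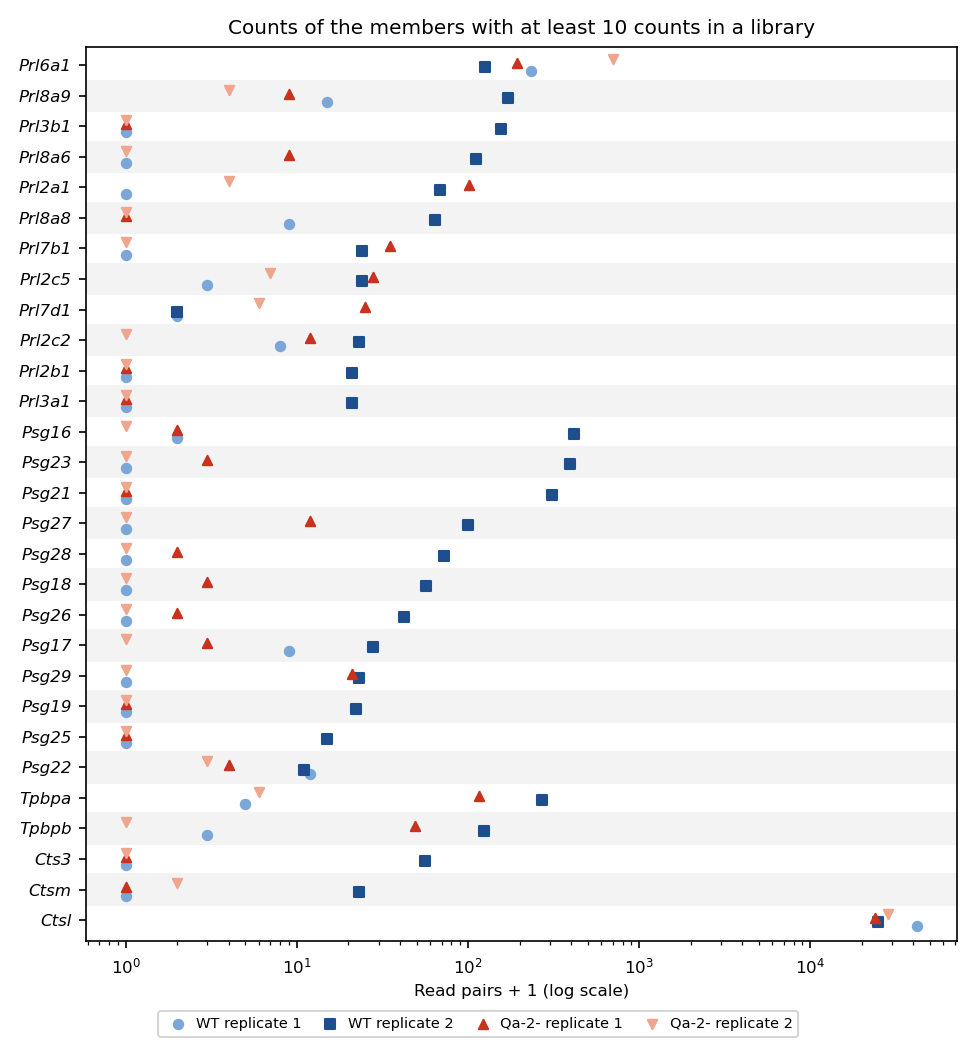
Read pairs plus 1 (log scale, so that a count of 0 stands at 1) of the 29 genes with at least 10 counts in a library, by library. The dark blue squares of WT replicate 2 lie to the right of the other libraries for most Prl, Psg and cathepsin genes, while Prl6a1 and Ctsl were counted in all 4 libraries.

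Added up over all members but Ctsl, the counts were 296, 2783, 625 and 725 (WT replicates 1 and 2, then Qa-2- replicates 1 and 2, an order kept for every run of 4 values that follows). A single gene, Prl6a1, made most of the sum in 2 of the libraries. Without it, WT replicate 1 kept 63 counts (1.57 CPM, exact Poisson 95% interval 1.21 to 2.01) and WT replicate 2 kept 2658 (70.5 CPM, 67.8 to 73.2). Qa-2- replicate 1 kept 434 (12.2 CPM, 11.1 to 13.4) and Qa-2- replicate 2 kept 26 (0.743 CPM, 0.485 to 1.09). WT replicate 2 was thus 44.9-fold above the other WT library, and Qa-2- replicate 1 was 16.5-fold above the other Qa-2- library. The 2 genotypes overlapped, and the spread within each genotype was larger than the 5.76-fold distance between their higher libraries. Even in WT replicate 2 these transcripts made 0.00675% of all counts. In bulk tissue, fewer cells of a type and less RNA per cell cannot be told apart.

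**Figure D2:**
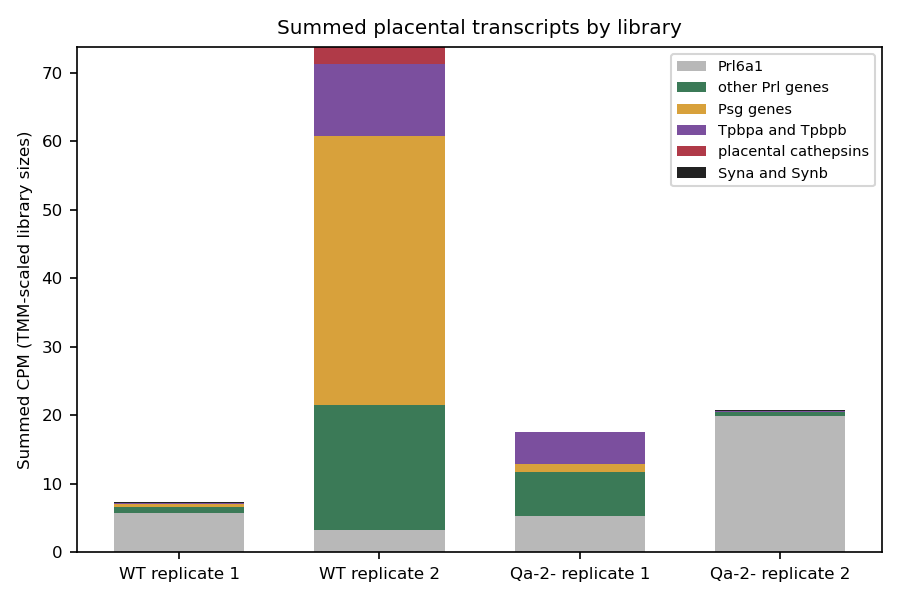
Summed CPM of the members but Ctsl in each library, stacked by family (CPM on TMM-scaled library sizes). WT replicate 2 reaches 73.8 CPM, mostly of Psg genes, whereas almost all of the 20.7 CPM of Qa-2- replicate 2 is Prl6a1.

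The 2 libraries with placental transcripts differed in composition. In WT replicate 2, Psg genes made 55.7% of the counts of these genes without Prl6a1 and Ctsl (Clopper-Pearson 95% interval 53.8 to 57.6), other Prl genes 25.8% (24.2 to 27.6), Tpbp genes 14.8% (13.5 to 16.2) and placental cathepsins 3.61% (2.94 to 4.39). In Qa-2- replicate 1 the Psg share was 9.91% (7.26 to 13.1), while other Prl genes made 52.1% (47.3 to 56.9), Tpbp genes 37.6% (33.0 to 42.3) and placental cathepsins 0.461% (0.0559 to 1.65). Intervals of the same family did not overlap between these libraries. They cover counting error only and compare 2 pieces of tissue, not 2 genotypes. Relative to WT replicate 2, Qa-2- replicate 1 held 0.440 of the summed CPM of Tpbp genes (0.364 to 0.529), 0.350 of that of Prl genes without Prl6a1 (0.300 to 0.407) and 0.0309 of that of Psg genes (0.0222 to 0.0418).

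Tpbpa and Tpbpb stand first among the spongiotrophoblast genes: Tpbpa is the usual marker of spongiotrophoblast and of its precursors, and Tpbpb lies beside it on chromosome 13. Tpbpa had 4, 271, 115 and 5 counts. Tpbpb had 2, 123, 48 and 0. Both were high in 1 library of each genotype and at or near the floor in the other, so that the groups overlapped. The ratio of Tpbpa to Tpbpb counts was 2.20 (1.77 to 2.75) in WT replicate 2 and 2.40 (1.70 to 3.43) in Qa-2- replicate 1, with intervals that overlapped. None of the 100-base windows of their transcripts was shared with another gene, so reads of either gene can be told apart by sequence.

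The sequence before the start of both genes shows how close the pair is. The 120 bases before the start given by RefSeq for GRCm38.p6 were 90.8% identical between Tpbpa and Tpbpb, and both hold TTTAAAG, written in capitals, 29 bases before the start. This heptamer, read off these promoters and then searched on both strands, was found in the same window of 6 of the 8 Tpbp and placental cathepsin genes with an entry (75.0%), all but Ctsm and Ctsq, and in 2.31% of 27025 mouse promoters. Cts3, the placental cathepsin with the most counts, is shown with the pair. A match of letters is a description and not a shown binding site, and RefSeq starts can lie inside the gene models that were counted.
Tpbpa (chr13:60941937-60942056, minus strand): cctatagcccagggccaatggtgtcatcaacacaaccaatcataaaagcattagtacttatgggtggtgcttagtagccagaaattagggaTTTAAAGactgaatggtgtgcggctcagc
Tpbpb (chr13:60904848-60904967, minus strand): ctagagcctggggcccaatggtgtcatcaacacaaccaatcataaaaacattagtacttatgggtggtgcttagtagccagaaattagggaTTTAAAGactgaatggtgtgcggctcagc
Cts3 (chr13:61570128-61570247, minus strand): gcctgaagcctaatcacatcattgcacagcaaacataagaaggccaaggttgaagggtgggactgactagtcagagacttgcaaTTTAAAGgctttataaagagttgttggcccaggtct

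The other spongiotrophoblast genes were highest in WT replicate 2. Prl8a9, of the prolactin-like protein C group made by spongiotrophoblast, had 14, 171, 8 and 3 counts. Others of its group were also highest in WT replicate 2, with 0, 110, 8 and 0 counts for Prl8a6 and 8, 63, 0 and 0 for Prl8a8. Prl3a1 was counted 20 times in WT replicate 2 and Prl8a1 3 times, and neither was counted elsewhere. Qa-2- replicate 1 therefore held 0.0497 of the CPM of Prl8a9 in WT replicate 2 (0.0211 to 0.100) and 0.0773 of that of Prl8a6 (0.0326 to 0.158), well below the 0.451 (0.360 to 0.563) for Tpbpa. The 7 spongiotrophoblast markers together came to 0.698, 20.2, 5.04 and 0.229 CPM, and the 6 of them over 3 counts in a library all had their highest value in WT replicate 2. Prl3a1 passed 3 counts in that library alone and so had to be highest in it. Of all genes over 3 counts, 27.8% were highest in WT replicate 2.

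Prl3b1, the placental lactogen of the second part of pregnancy that activates the prolactin receptor, had 0, 155, 0 and 0 counts. With the floor of 3 counts per library, WT replicate 2 was at least 55.0-fold higher than the other WT library and at least 48.6-fold and 47.9-fold higher than the Qa-2- libraries. At 3.85 RPKM (reads per length of exon and library size, with TMM scaling), its level in WT replicate 2 stood between Prl8a9 (4.81 RPKM) and Prl6a1 (2.86 RPKM). Prl2b1, listed here with Prl3b1 under sinusoidal giant cells of the labyrinth, had 20 counts in WT replicate 2 and 0 elsewhere. Ctsq, the usual marker of those cells, was at 0 in all 4 libraries.

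Prl genes of parietal giant cells were rare. The placental lactogen I genes Prl3d1, Prl3d2 and Prl3d3, which are made before midgestation, were at 0 in every library, as was Hand1, a transcription factor of giant cells. Prl4a1 had 1 count in Qa-2- replicate 1. Prl2c2, a proliferin gene, had 7, 22, 11 and 0 counts, and Prl2c5 of the same group had 2, 23, 27 and 6. The proliferin genes are near copies of each other: 56.9% of the 100-base windows of Prl2c2 transcripts are also found in another gene, most of them in Prl2c3, which had 1 count in Qa-2- replicate 1 and 0 elsewhere. Since pairs that fit several positions were not counted, these values are lower limits for the group.

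Another set of Prl genes was as high or higher in Qa-2- replicate 1. Prl2a1 had 0, 68, 100 and 3 counts, which put its CPM in Qa-2- replicate 1 at 1.56 times that of WT replicate 2 (1.14 to 2.16). Prl7b1, a gene of glycogen cells and of trophoblast that invades the spiral arteries, had 0, 23, 34 and 0 counts and a ratio of 1.57 (0.899 to 2.79), which does not differ from 1 beyond counting error. Prl7d1, which encodes proliferin-related protein, an inhibitor of vessel growth, had 1, 1, 24 and 5 counts, and Prl2c1 had 0, 1, 8 and 0. For Prl7d1 the ratio was 25.5, with a wide interval of 4.16 to 1049 because WT replicate 2 had 1 count. The ratio of Prl2a1 to Prl8a9 counts was 0.398 (0.296 to 0.530) in WT replicate 2 and 12.5 (6.11 to 29.8) in Qa-2- replicate 1, a pair chosen after its values were seen.

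Prl6a1, known from both spongiotrophoblast and decidua, went its own way. Its counts were 233, 125, 191 and 699, highest in Qa-2- replicate 2, where the other placental genes were near the floor, and lowest in WT replicate 2, where they were highest. Per length it was the highest of the placental genes in 3 of the 4 libraries, with 5.01, 2.86, 4.64 and 17.2 RPKM. The 6 decidual stroma genes, which include Hand2 and Bmp2, summed to 520, 564, 442 and 303 CPM, an order unlike that of Prl6a1. Singly they were mixed: 3 were highest in WT replicate 2 and 2, Wnt4 and Alpl, in Qa-2- replicate 2. Wnt4, at 16.7, 13.9, 16.3 and 18.6 CPM, had the same order of libraries as Prl6a1. The 6 uterine epithelium genes were at 967, 502, 1068 and 1351 CPM. This is the order of Prl6a1 but for WT replicate 1 and Qa-2- replicate 1. The part of either list in the values of Prl6a1 was not tested.

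The Prl genes share a promoter element whether or not they were counted here. TATATA was found within 120 bases before the RefSeq start in 18 of the 21 Prl genes with an entry (85.7%), all but Prl3a1, Prl7c1 and Prl8a6, and in 2.75% of all 27025 promoters, on either strand (the word reads the same on both). It was chosen after the sequences were seen. The 4 promoters below belong to genes whose libraries differ: Prl3b1 and Prl8a9 were highest in WT replicate 2, Prl2a1 in Qa-2- replicate 1 and Prl6a1 in Qa-2- replicate 2. The windows of Prl3b1 and Prl8a9 were 35.9% identical.
Prl3b1 (chr13:27242310-27242429, plus strand): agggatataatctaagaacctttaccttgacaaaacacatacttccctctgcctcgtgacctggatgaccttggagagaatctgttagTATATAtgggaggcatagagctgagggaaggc
Prl8a9 (chr13:27564607-27564726, minus strand): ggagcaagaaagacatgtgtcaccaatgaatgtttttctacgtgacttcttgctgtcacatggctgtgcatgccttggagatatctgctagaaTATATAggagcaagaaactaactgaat
Prl2a1 (chr13:27801535-27801654, plus strand): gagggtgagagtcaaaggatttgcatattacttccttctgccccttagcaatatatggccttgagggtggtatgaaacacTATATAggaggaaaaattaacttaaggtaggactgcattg
Prl6a1 (chr13:27312495-27312614, plus strand): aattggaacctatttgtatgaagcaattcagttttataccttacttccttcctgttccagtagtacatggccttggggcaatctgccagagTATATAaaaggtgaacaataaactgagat

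**Figure D3:**
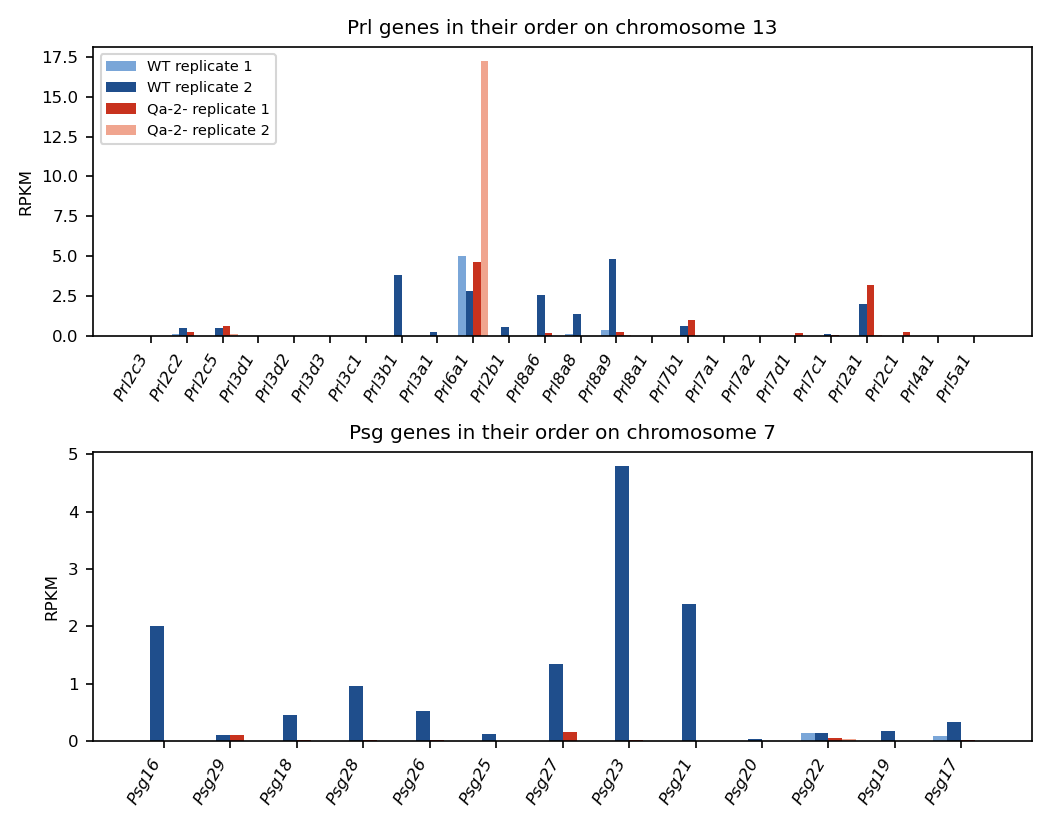
RPKM of the 24 Prl genes (upper panel) and the 13 Psg genes (lower panel) in each library, placed in their order along the chromosome and not to scale by distance; each panel has its own vertical scale. In the Prl cluster, Prl3b1, Prl8a6, Prl8a8 and Prl8a9 carry mainly dark blue bars of WT replicate 2. Prl2a1 and Prl7b1 carry both red bars of Qa-2- replicate 1 and dark blue bars of WT replicate 2, and Prl6a1 bars of all libraries.

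The neighbours on the chromosome did not share one pattern. The main Prl cluster, from Prl3d1 to Prl5a1 on chromosome 13 (27094190 to 28151611 in GRCm38), begins and ends with genes at 0, and Prl6a1 lies between Prl3a1 and Prl2b1, which were counted in WT replicate 2 alone. Prl7b1, with like counts in WT replicate 2 and Qa-2- replicate 1, follows Prl8a1 among these genes, while Prl8a9 on the other side of Prl8a1 had 171 and 8 counts in those libraries. None of the 48 genes lies on chromosome 17, which holds the H2 genes, whereas 33 are on chromosome 13 and 13 on chromosome 7.

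The Psg family had the most counts of the placental families in WT replicate 2 and few elsewhere. Its 13 genes summed to 20, 1481, 43 and 2 counts, or 0.498, 39.3, 1.21 and 0.0572 CPM. By library, 2, 12, 2 and 0 of the 13 genes were over 3 counts. Of the 12, 11 had their highest CPM in WT replicate 2, as had 27.8% of all genes over 3 counts. Those that passed 3 counts in WT replicate 2 alone, such as Psg21, had to be highest there.

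Psg16 had 1, 414, 1 and 0 counts. Psg23 had 0, 395, 2 and 0, and Psg21 had 0, 308, 0 and 0. Psg21 was at least 109-fold higher in WT replicate 2 than in WT replicate 1 and at least 95.2-fold higher than in Qa-2- replicate 2, with the floor of 3 counts per library. Such gaps separate the libraries of 1 genotype as much as those of different genotypes. Per length Psg23 led with 4.81 RPKM, followed by Psg21 with 2.38, then Psg16, Psg27 with 1.35 and Psg28 with 0.966. Of the transcript windows of Psg23, 15.5% are shared with another gene, mainly Psg21, so a part of the reads of either was not counted.

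The remaining Psg genes over the floor were counted less. Psg27, Psg28, Psg18 and Psg26 had 99, 71, 56 and 41 counts in WT replicate 2 and at most 11 elsewhere. Psg17, Psg19 and Psg25 had 27, 21 and 14 counts there, and Psg20 had 3. Psg17 had 8 counts in WT replicate 1, where the other Psg genes but Psg22 had 0 or 1.

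Psg29 and Psg22 departed from the family. Psg29 had 0, 22, 20 and 0 counts, so that the CPM of Qa-2- replicate 1 was 0.967 of that of WT replicate 2 (0.500 to 1.86), while for Psg27 it was 0.118 (0.0571 to 0.221), for Psg23 0.00538 (0.000650 to 0.0196) and for Psg21 at most 0.0128. The intervals of Psg29 and of these genes did not overlap. The ratio of Psg27 to Psg29 counts was accordingly 4.50 (2.81 to 7.50) in WT replicate 2 and 0.550 (0.238 to 1.20) in Qa-2- replicate 1, again a pair chosen after its values were seen. Psg22, known from giant cells of the early placenta, had 11, 10, 3 and 2 counts and was the one Psg gene not highest in WT replicate 2.

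The Psg promoters resemble each other to different degrees. CTTATC, searched on both strands after it was read off these sequences, was found within 120 bases before the start of 9 of the 10 Psg genes with a RefSeq entry (90.0%), all but Psg20, and in 3.05% of all promoters. The windows of Psg21 and Psg23 were 100% identical over 117 bases once shifted by 3, those of Psg21 and Psg27 were 70.5% identical over 105 bases and those of Psg21 and Psg29 48.7% over 117. Psg21 and Psg23 are shown as the pair counted almost wholly in WT replicate 2, Psg27 as the next, and Psg29 as the gene with like counts in both libraries, with the hexamer in capitals. All 4 hold it.
Psg21 (chr7:18656726-18656845, minus strand): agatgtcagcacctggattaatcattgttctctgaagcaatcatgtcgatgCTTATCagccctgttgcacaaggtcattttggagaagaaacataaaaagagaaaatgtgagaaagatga
Psg23 (chr7:18616502-18616621, minus strand): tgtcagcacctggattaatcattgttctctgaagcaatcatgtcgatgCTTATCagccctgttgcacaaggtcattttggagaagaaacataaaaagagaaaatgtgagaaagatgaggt
Psg27 (chr7:18567306-18567425, minus strand): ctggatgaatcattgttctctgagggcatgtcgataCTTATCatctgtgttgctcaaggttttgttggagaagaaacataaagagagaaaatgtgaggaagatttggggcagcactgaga
Psg29 (chr7:17203357-17203476, plus strand): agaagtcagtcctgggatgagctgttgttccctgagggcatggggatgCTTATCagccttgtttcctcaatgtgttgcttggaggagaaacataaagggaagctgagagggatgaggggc

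The placental cathepsins followed the Psg genes more than Tpbpa and Tpbpb, beside which they lie (60901188 to 61570127 on chromosome 13 from Tpbpb to Cts3). They summed to 0, 96, 2 and 1 counts. Cts3 had 0, 55, 0 and 0, at least 19.5-fold above the other WT library and at least 17.2-fold above Qa-2- replicate 1. Ctsm had 0, 22, 0 and 1 counts, and Ctsj, Ctsr and Cts6 had 8, 7 and 4 in WT replicate 2 and at most 2 elsewhere. The whole family thus lay in WT replicate 2, apart from 3 counts. Relative to WT replicate 2, the summed cathepsin CPM of Qa-2- replicate 1 was 0.0221 (0.00264 to 0.0822), below that of the Tpbp genes with no overlap of the intervals.

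Markers of the syncytiotrophoblast layers of the labyrinth were at or near 0. Syna, whose product fuses trophoblast cells into the outer syncytial layer, had 5, 0, 0 and 1 counts, with the 5 in WT replicate 1, where the other trophoblast genes were few. Synb, the gene of the second layer, had 0 counts in every library, but 73.8% of its transcript windows are also found in another annotated copy on chromosome 14 that was likewise at 0, so a read of Synb would mostly not have been counted. Gcm1, the transcription factor of syncytiotrophoblast, was at 0. Slc16a3, a lactate transporter of that layer and of other tissues, had 1296, 784, 400 and 294 counts. Ly6e, the receptor of syncytin A, which many tissues express, had 52848, 31944, 36722 and 34952.

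Ctsl, the lysosomal cathepsin of most tissues, was counted in all 4 libraries. It had 42257, 24974, 23985 and 28261 counts, or 162, 102, 104 and 125 RPKM. WT replicate 1 was above the others and the groups overlapped. Its level did not follow that of the placental cathepsins, which were found in WT replicate 2.

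Between the genotypes, 0 of the members passed the test. Of the 48 genes, 5 reached the minimum for testing, 1 CPM in 2 of the libraries: Ctsl, Prl6a1, Prl2a1, Tpbpa and Tpbpb. The other 43 were too low in all but 1 library or in all. In edgeR's quasi-likelihood fit, no member and none of the 14492 genes tested (0%) passed 0.05 after Benjamini-Hochberg adjustment. Before adjustment, 0 of the 5 members and 15.2% of all genes (2199) had a p under 0.05. DESeq2 called 0 of the 5 members and 4.83% of all genes after adjustment, 2.79% with WT higher and 2.04% with Qa-2- higher. All 5 members overlapped between the groups, while 50.0% of all genes tested did not. Of the 35 members over 3 counts in a library, 4 did not overlap with WT higher (Prl8a8, Prl8a9, Psg17 and Psg22, background 21.1% of the 22464 genes over 3 counts) and 1 with Qa-2- higher (Prl7d1, background 23.5%). With 2 libraries a group, an exact permutation test of 1 gene cannot go below a two-sided p of 0.33.

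Without the filter, 40 members entered the edgeR fit, and again 0 passed after adjustment. Before adjustment, 14 had a p under 0.05 with WT higher (background 5.79% of 28242 genes), among them Prl8a8, Prl8a9, Psg16, Psg21 and Psg23, and 2 with Qa-2- higher (background 4.99%), Prl6a1 and Prl7d1. Most of the 14 were counted almost wholly in WT replicate 2. Without that library, 29 members entered the unfiltered fit and 0 had an unadjusted p under 0.05 in either direction (background 4.31% with WT higher and 3.44% with Qa-2- higher of 27549 genes), with the remaining WT library assumed to vary like the Qa-2- libraries.

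Prl6a1 averaged 4.56 ± 1.76 CPM (SD, n = 2) in WT and 12.7 ± 10.3 in Qa-2- uteri. The log2 fold change, with WT over Qa-2-, was -1.47 (SE 0.67, edgeR adjusted p = 0.371), and without Qa-2- replicate 2 it was -0.24. Tpbpa averaged 3.64 ± 5.01 CPM in WT and 1.69 ± 2.19 among Qa-2- mice, with SDs above the means, and its log2 fold change came to 1.10 (SE 1.83, edgeR adjusted p = 0.802). Tpbpb was at 1.28 (SE 1.92, edgeR adjusted p = 0.780), Prl2a1 at -0.69 (SE 1.87, edgeR adjusted p = 0.879) and Ctsl at 0.21 (SE 0.33, edgeR adjusted p = 0.789). For Tpbpa, Tpbpb and Prl2a1 the libraries of 1 genotype lay far apart, and a difference between the genotypes was not detectable with them. For Prl2a1 and Ctsl the sign turned without WT replicate 1, to 0.29 and -0.19.

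**Figure D4:**
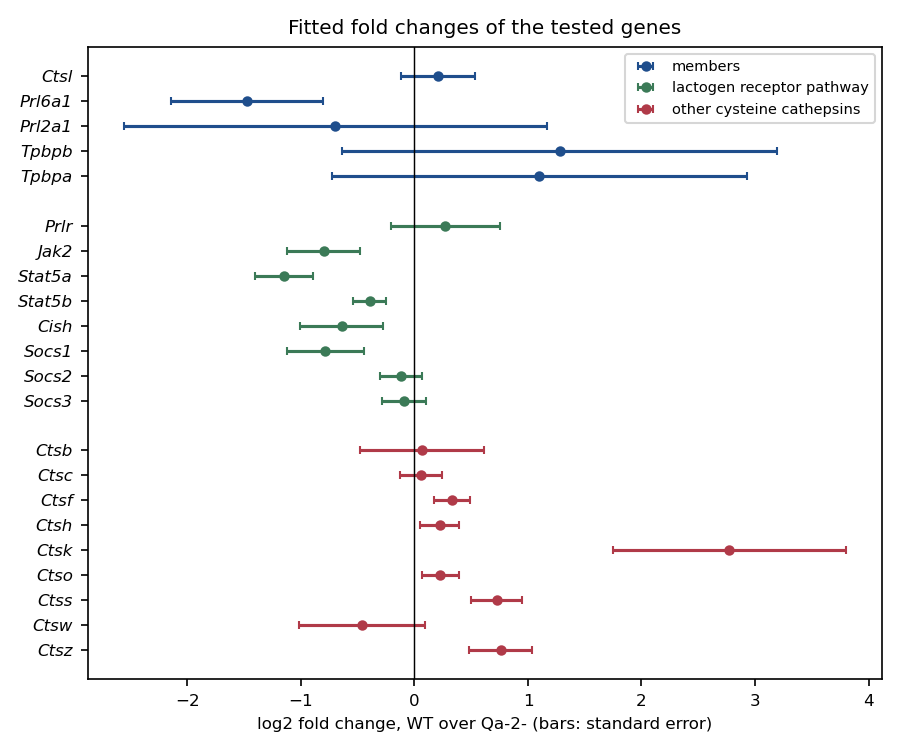
Fitted log2 fold change (WT over Qa-2-) with its standard error for the 5 tested members (blue), the 8 genes of the lactogen receptor pathway (green) and the 9 other cysteine cathepsins (red). The bars of Tpbpa, Tpbpb and Prl2a1 are the widest and cross 0, and Stat5a lies at -1.14.

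Some genes of trophoblast outside the families were counted in the same libraries. Of 26 such genes, 17 passed 3 counts in a library and 4 were at 0 in all: Gcm1, Hand1, Cts8 and Ceacam9. The list as a whole was spread over the libraries, with 11, 16, 13 and 10 genes over 3 counts, and the highest value lay in WT replicate 1 for 4 of the 17, in WT replicate 2 for 7, in Qa-2- replicate 1 for 4 and in Qa-2- replicate 2 for 2. Ceacam11, Ceacam12 and Ceacam14, placental genes of the immunoglobulin-like family to which Psg genes belong, were highest in WT replicate 2, with 0, 149, 20 and 6 counts for Ceacam11, 3, 104, 1 and 3 for Ceacam12 and 0, 61, 0 and 0 for Ceacam14. Peg10 and Nrk, placental genes that are also used elsewhere, were highest in Qa-2- replicate 1, with 715, 1098, 2626 and 533 counts for Peg10 and 56, 195, 423 and 251 for Nrk. Of the 7 genes of this list that could be tested, 0 passed edgeR's adjusted threshold, 2 had an unadjusted p under 0.05 with WT higher (Pcdh12 and Slc16a3; background 8.09%), and by DESeq2 Slc16a3 passed (adjusted p = 0.00305). Pcdh12, known from glycogen cells and from endothelium, had 621, 844, 452 and 382 counts, and Gjb2, a connexin gene also used by epithelia, had 2586, 1201, 2620 and 3536.

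Markers of the fetal membranes and of the fetus give a second comparison of the 4 libraries. Afp, the main protein of visceral yolk sac, had 158, 1268, 13253 and 689 counts, and 6 of the 8 yolk sac genes were highest in Qa-2- replicate 1. This is not the library with the most Psg and Prl counts, and the 7 genes without Rbp4 were in it 563 CPM against 53.9 in WT replicate 2. The embryonic globin genes Hba-x, Hbb-bh1 and Hbb-y had 1 count in all. As globins of the embryonic stage, they could not show whether blood of the fetus was present at E18.5. Of 4 genes of chromosome Y, which a mother does not carry, Ddx3y had 4 counts in WT replicate 2 and Eif2s3y 1 in Qa-2- replicate 1, and none was counted in WT replicate 1 or Qa-2- replicate 2. By the limit of more than 3 counts, Ddx3y in WT replicate 2 was the one Y-linked gene detected.

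**Figure D5:**
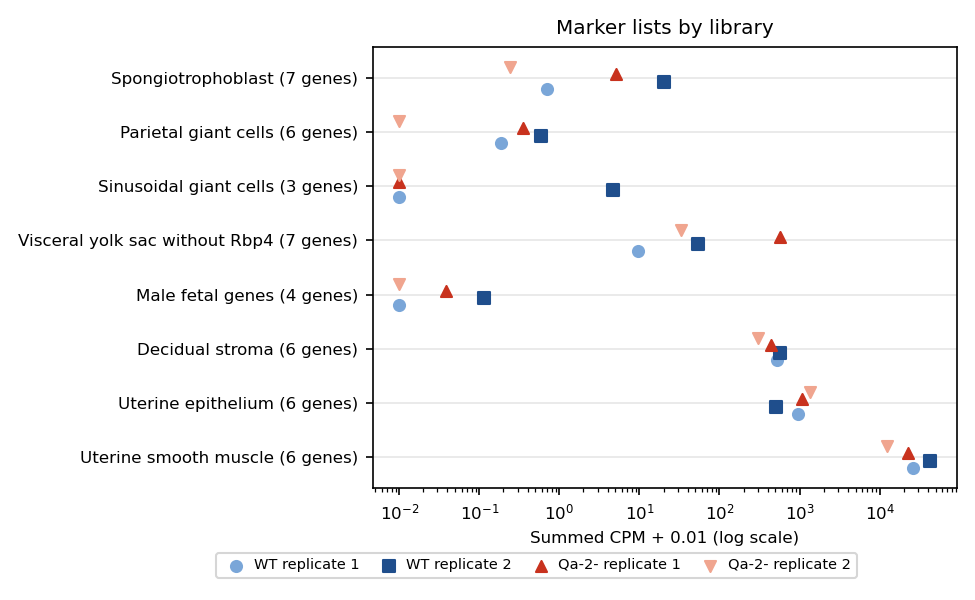
Summed CPM plus 0.01 (log scale) of 8 marker lists in each library. Spongiotrophoblast genes are highest in WT replicate 2. The sinusoidal giant cell list is also highest there through Prl3b1 and Prl2b1, while Ctsq, the usual marker of those cells, is at 0 in every library. Yolk sac genes, with Rbp4 left out, are highest in Qa-2- replicate 1, whereas decidual stroma, epithelium and smooth muscle genes lie within 1 order of magnitude.

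The receptor pathway on which placental lactogens act was counted in every library. Prlr, the prolactin receptor, had 3450, 1327, 1323 and 2202 counts, with overlapping groups and a log2 fold change of 0.27 (SE 0.48). It was not higher in WT replicate 2, the library with Prl3b1. Of the 8 genes of the pathway, 0 passed the adjusted threshold of edgeR, and 2 had an unadjusted p under 0.05 with Qa-2- higher (background 7.09%), Stat5a and Stat5b, the transcription factors that the receptor activates. Stat5a had 889, 799, 1316 and 2054 counts (log2 fold change -1.14, SE 0.26, edgeR adjusted p = 0.246, DESeq2 adjusted p = 0.0102), and Stat5b 1693, 1688, 1954 and 2067 (-0.39, SE 0.14). Jak2, the receptor's kinase, and Socs1, an inhibitor, were also higher in both Qa-2- libraries, which makes 4 of 8 without overlap in that direction against a background of 24.5%. The median log2 fold change of the 8 genes was -0.52, against 0.01 for all genes tested. The uterine epithelium genes lay in the same direction, with a median of -0.82 over the 5 tested and 3 of them without overlap with Qa-2- higher, and the part of epithelium in the values of the pathway was not tested. Cish, a target gene of Stat5, had 1337, 648, 1151 and 1617 counts and overlapped.

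The other cysteine cathepsins were mostly highest in WT replicate 1, which held the highest value of 8 of the 9 genes. Their summed CPM was 11685, 6300, 8571 and 7499, lowest in WT replicate 2. Of 9 genes, 0 passed the adjusted threshold of edgeR or DESeq2, 3 had an unadjusted p under 0.05 with WT higher (background 8.09%), and 6 did not overlap with WT higher (background 25.4%), with a median log2 fold change of 0.23. Ctsk, the collagen-degrading cathepsin, had 35688, 3385, 2471 and 2568 counts, so its log2 fold change of 2.77 (SE 1.03) rests on WT replicate 1. Ctsb, the most counted of the list, overlapped between the groups with 395424, 204372, 278771 and 235306 counts, as did Ctsc with 9110, 7876, 7063 and 7687. Ctsh had 8378, 7505, 6311 and 5995 counts. Ctsz had 12853, 7657, 5124 and 5756 counts, and Ctss, the cathepsin of antigen-presenting cells, 3526, 3312, 1520 and 2220. Of 5 cathepsin inhibitors, 3 could be tested and 0 passed edgeR's adjusted threshold. Cst3, the secreted inhibitor cystatin C, had 19827, 15790, 8797 and 9399 counts (log2 fold change 0.82, SE 0.21, edgeR adjusted p = 0.266, DESeq2 adjusted p = 0.0110). Cst6 had 94, 44, 25 and 28 counts (log2 fold change 1.22, SE 0.50), and Cstb, which overlapped, 4132, 2637, 2351 and 2909. The 3 reference genes Actb, Gapdh and Ppia were higher in WT as well, without overlap and with a median log2 fold change of 0.40, and how much of the cathepsin and cystatin differences goes with this was not tested.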

How the data were processed

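RNA of whole uteri from 2 WT and 2 Qa-2- mice at E18.5 was sequenced with 1 library per mouse, from a directional poly-A protocol with paired reads. The values deposited by the authors are raw counts of read pairs per gene (featureCounts 2.0.0, strand-specific, pairs with several positions not counted). The submitters' processing notes also name STAR 2.7.3a and GRCm38.p6. No authors' normalization enters these counts. Symbols came from GENCODE M21, in which 55240 identifiers were found and 181 were not. All 48 members have the same start and end there. One gene of the Prl series is not reported here. The members and lists were chosen with earlier results of these data known, and the genes named by rule are Ctsl, Tpbpa, Tpbpb, Syna, Synb, the members with at least 10 counts in a library, and up to 6 genes with the largest counts of a list. Other genes were named after their values were seen.

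The 14492 genes that reached 1 CPM in 2 or more libraries, a filter worded as in the methods but keeping fewer genes than the study states for its own, were compared with edgeR 4.0.16 (TMM, glmQLFit, glmQLFTest) in R 4.3.3, with p-values adjusted (Benjamini-Hochberg) over all 14492. The SE is the log2 fold change divided by the square root of F. CPM and RPKM use TMM-scaled library sizes, and RPKM the exon length of the count tables. Intervals are exact (Poisson for sums, Clopper-Pearson at 95% for shares and, split between 2 counts, for ratios) and cover counting error only, since reads without molecular identifiers are not independent molecules. The code was tested on simulated counts. The 2 libraries of a group differed by more than sampling noise (chi-square per gene 241 for WT and 151 for Qa-2-). The labels number the mice 1 and 2 in each group, but they are different animals.

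Promoter sequences are the 120 bases before the start in RefSeq's GRCm38.p6 entries, which 41 of the 48 genes have. Shared windows are 100-base stretches of GENCODE M21 transcripts found in another gene's transcripts. Alternatives were DESeq2 1.42.0, other scalings and filters, a replicate block, a robust fit, leaving out each library, counts thinned to the smallest library and another detection limit, and, chosen after seeing the data, a crossed pairing, sums without Prl6a1 and an unfiltered fit without WT replicate 2.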

Additional observations from a re-analysis of the deposited data

How the results depend on the processing

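No member was called under any of the 12 alternatives run, with 2 to 40 of the 48 genes tested. Over all genes, the 0 calls became 404 (WT higher) and 296 (Qa-2- higher) with DESeq2, and 47 and 14 without a filter. Leaving out each library in turn gave 0 to 45 genes higher in WT, with the lone library of a group assumed to vary like the other group, and the 45 came without WT replicate 2. Members with an unadjusted p under 0.05 in edgeR went from 0 to 14 (WT higher) and 2 (Qa-2- higher) without a filter. When WT replicate 2 was also left out, the log2 fold change of Psg16 fell from 8.29 to 0.71, while that of Prl7d1 went from -3.81 to -3.84. Without WT replicate 1, the log2 fold changes of Prl2a1 (0.29) and Ctsl (-0.19) turned sign, and the cause was not tested. Over the left-out libraries Prl2a1 ranged from -1.65 to 0.29 and Ctsl from -0.19 to 0.50. Prl6a1 ranged from -2.13 to -0.24 over the left-out libraries, Tpbpa from 0.16 to 2.06 and Tpbpb from 0.28 to 2.24. Without WT replicate 2 or Qa-2- replicate 1, Prl2a1, Tpbpa and Tpbpb no longer reached the filter and gave no value.

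With a replicate block, 2 genes were called higher in WT and none of them was a member. Same-numbered libraries deviated in opposite directions (correlation of deviations -0.37). The crossed pairing called 0 genes in edgeR (smallest adjusted p 0.0539). With it 3625 genes had an unadjusted p under 0.05 in edgeR, against 2199 without a block.

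With at least 10 counts in place of more than 3, the members detected fell from 9 to 4 in WT replicate 1 and from 5 to 2 in Qa-2- replicate 2, and the order of the libraries was kept. The summed CPM without Prl6a1, which is also the gene with the largest count in those libraries, went from 7.37 to 1.57 in WT replicate 1, from 17.6 to 12.2 in Qa-2- replicate 1 and from 20.7 to 0.743 in Qa-2- replicate 2. In WT replicate 2 it went from 73.8 to 70.5, to 62.8 without Psg16, its largest gene, and to 70.6 on library totals alone. With 1 piece of tissue per mouse and 2 mice a group, how the placental transcripts vary within a uterus was not measured, and members under 3 counts were not detectable at this depth.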
